A study of Mus musculus with 12 samples.

Results

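A set of 39 genes of the lysosome and of autophagy was followed in mouse cytotoxic T lymphocytes (CTL) after deletion of Pdpk1 and after inhibition of Akt. The genes were taken from a list by name, and a gene with several probe sets was read from the one that was brightest on average over the 12 arrays. Of the 39 genes, 38 were measured among 18193 genes on the array, with 93 probe sets of 45037 tested, and Cd63 was not analysed here. The 38 comprise 14 lysosomal enzymes, 4 proteins that help or inhibit these enzymes, 3 lysosomal membrane proteins, 4 subunits of the proton pump, 2 transcription factors and 11 autophagy genes.

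All cultures began as splenocytes of C57BL/6 background mice, which were activated for 48 hr with 0.5 μg/ml CD3 antibody and 20 ng/ml IL-2 and then grown for 5 days in IL-2. Pdpk1-null CTL carried floxed Pdpk1 (PDK1fl/fl) and the tamoxifen-inducible Cre of the ROSA26 locus (TamoxCre), and Cre control CTL carried TamoxCre alone. Both received 0.6 μM 4OHT for the last 72 hr, so the controls also had active Cre and the drug, and Cre from this locus is not limited to T cells. In a separate experiment, wild type CTL of 3 mice were divided, and one portion of each culture was given the Akt inhibitor AktI at 1 μM during the last 48 hr while the other stayed in IL-2 alone. Each of the 4 groups had 3 arrays. Per the study, the mice were matched for age and sex, and the ages and sexes themselves were not given in the sources used here.

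Lysosomes degrade proteins, lipids and glycans with acid hydrolases, and the vacuolar proton pump keeps their lumen acidic. Autophagy wraps cytoplasm in a double membrane that carries members of the LC3 and GABARAP families and delivers it to the lysosome. The transcription factors TFEB and TFE3 bind E-box motifs in the promoters of many of these genes, and their entry into the nucleus is restrained by kinases of nutrient and growth factor signaling. In CTL, lysosome-related organelles also store the cytolytic granule proteins, some of which are trimmed by cathepsins.

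The signals are log2 values. A gene was called, and is said to have passed, to have risen or to have fallen, where limma gave an adjusted p under 0.05 (Benjamini-Hochberg over all 45037 probe sets) together with a difference of 1.5-fold or more, which is 0.58 on the log2 scale. The median signal per array lay between 4.60 and 4.62 in the Pdpk1 experiment and between 5.10 and 5.14 in the Akt experiment, so levels were compared within an experiment and only effects between them. All 38 genes had a signal above background (4.45 and 4.99), which is the 95th percentile of 80 olfactory and vomeronasal receptor probe sets. T cell markers were bright in every group (7 of 7 above background), with Cd3d at 12.67 in Pdpk1-null, 12.54 in Cre control, 13.36 in AktI and 13.35 in IL-2 alone CTL. One of these markers passed, the adhesion receptor gene Cd2 after deletion (10.31 in Pdpk1-null and 9.64 in Cre control CTL, log2 fold change 0.67, adjusted p = 0.0151). With AktI Cd8b1 had 0.50 (adjusted p = 0.0035) and Gzmb had -0.34 (adjusted p = 0.0192), both under 1.5-fold, and the part of these markers in the results was not tested. The brightest Pdpk1 probe set had 8.95 to 9.09 in Pdpk1-null and 8.96 to 9.03 in Cre control CTL. Whether this probe set reads the floxed exons was not given in the sources used here, and its signal is no check of the genotype. The number of arrays limits the precision, and the standard errors of the members' log2 fold changes lay between 0.0633 and 0.134 after deletion and between 0.0617 and 0.103 with AktI.

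Few of these genes passed, and a gene that did not pass is not shown to be unchanged. After Pdpk1 deletion the saposin precursor gene Psap rose. With AktI the cathepsin genes Ctsz and Ctss rose and the cathepsin gene Ctsd fell. No transcription factor and no autophagy gene of the set passed in either comparison, and the catalytic pump subunit gene Atp6v1a was lower with AktI by less than 1.5-fold. Of the 38 log2 fold changes, 31 were within 0.25 of 0 after deletion and 30 with AktI. Small changes were also the rule over all genes. The median absolute log2 fold change was 0.13 after deletion and 0.11 with AktI in the set, against 0.09 over all genes in both comparisons.

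**Figure D1:**
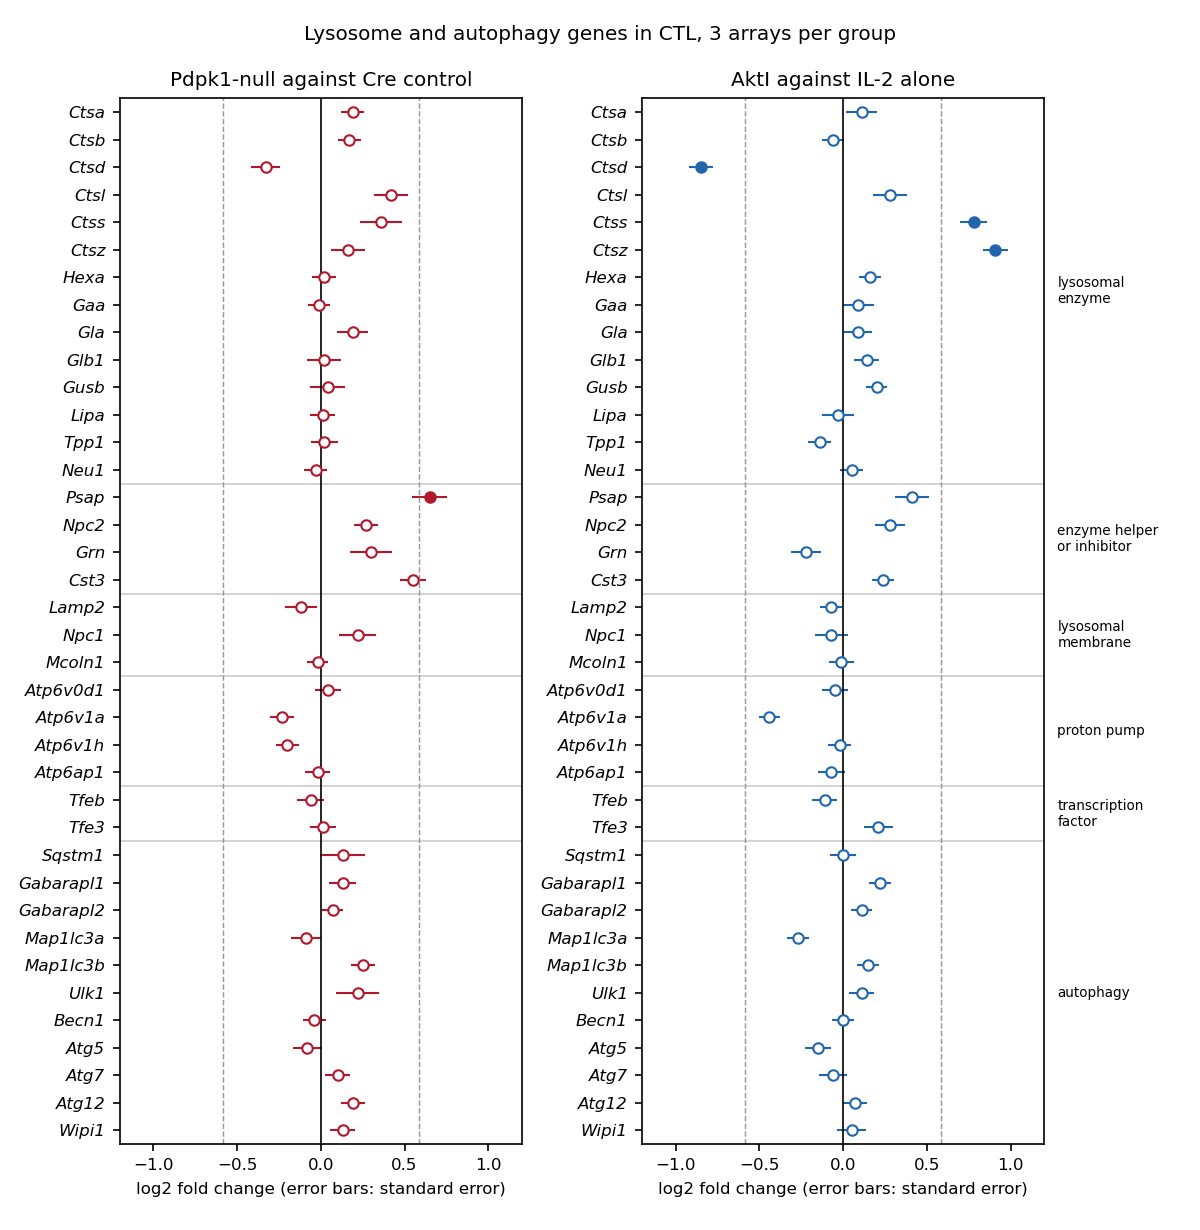
The 38 measured lysosome and autophagy genes, grouped by role, with points for the log2 fold change (x axis) and bars for its standard error, in Pdpk1-null against Cre control CTL (left, red) and in AktI against IL-2 alone (right, blue), 3 arrays per group. Filled points passed and dashed lines mark 1.5-fold. Psap is the 1 filled point after deletion, and Ctsz and Ctss (higher) and Ctsd (lower) are the 3 with AktI.

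The promoters of the members that passed are shown because the E-box CACGTG is the core of the element that TFEB and TFE3 are known to bind. Sequences are from RefSeq on GRCm38.p6, from 250 bases before to 50 bases after the annotated start, and 33 of the 39 genes had an entry. Letters in capitals mark CACGTG and its longer form TCACGTG, which overlaps it and was read on both strands, and the element of Foxo factors, GTAAACA, also read on both strands. Atp6v1a is added after its values were seen.
Ctsd, chr7:142387778-142388077, minus strand: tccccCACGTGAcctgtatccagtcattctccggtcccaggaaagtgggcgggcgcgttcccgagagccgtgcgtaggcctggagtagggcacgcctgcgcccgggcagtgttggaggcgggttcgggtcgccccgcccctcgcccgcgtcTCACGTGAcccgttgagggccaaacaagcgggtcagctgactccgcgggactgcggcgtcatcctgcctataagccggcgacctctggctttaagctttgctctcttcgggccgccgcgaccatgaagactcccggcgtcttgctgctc
Atp6v1a, chr16:44139210-44139509, minus strand: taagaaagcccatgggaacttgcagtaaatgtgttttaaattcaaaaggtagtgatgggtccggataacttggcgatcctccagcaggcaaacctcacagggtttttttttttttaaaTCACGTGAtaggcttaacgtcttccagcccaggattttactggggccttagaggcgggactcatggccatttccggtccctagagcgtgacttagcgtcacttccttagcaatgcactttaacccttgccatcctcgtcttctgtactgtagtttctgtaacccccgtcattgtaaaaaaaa
Ctsz, chr2:174438990-174439289, minus strand: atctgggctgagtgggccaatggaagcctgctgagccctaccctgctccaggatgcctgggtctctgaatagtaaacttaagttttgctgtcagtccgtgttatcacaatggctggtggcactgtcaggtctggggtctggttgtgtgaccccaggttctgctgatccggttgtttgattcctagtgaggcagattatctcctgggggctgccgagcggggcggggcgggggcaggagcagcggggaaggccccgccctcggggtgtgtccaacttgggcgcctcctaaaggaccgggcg
Ctss, chr3:95526536-95526835, plus strand: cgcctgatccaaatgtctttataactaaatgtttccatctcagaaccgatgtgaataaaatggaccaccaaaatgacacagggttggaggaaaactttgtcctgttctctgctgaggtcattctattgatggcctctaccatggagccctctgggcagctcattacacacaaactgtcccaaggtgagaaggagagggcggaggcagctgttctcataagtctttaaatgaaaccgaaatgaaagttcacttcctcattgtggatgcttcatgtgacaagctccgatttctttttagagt
Psap, chr10:60277378-60277677, plus strand: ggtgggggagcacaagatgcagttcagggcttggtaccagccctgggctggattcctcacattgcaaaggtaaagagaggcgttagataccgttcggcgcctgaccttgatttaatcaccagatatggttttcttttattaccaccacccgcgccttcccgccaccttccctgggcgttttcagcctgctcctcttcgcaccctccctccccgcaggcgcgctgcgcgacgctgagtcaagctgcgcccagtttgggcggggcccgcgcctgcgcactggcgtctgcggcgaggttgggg

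The window of Ctsd holds CACGTG at positions -245 and -98 from the start, and that of Atp6v1a holds it at -131. The windows of Ctsz and Ctss and both annotated windows of Psap, of which the more upstream is shown, do not hold these letters. Across the set, 11 of 33 genes (33.3%) had CACGTG in a window, against 8.09% of all genes with an entry. They are Ctsa, Ctsd, Ctsl, Gaa, Gla, Glb1, Mcoln1, Atp6v0d1, Atp6v1a, Atg5 and Atg7. The longer TCACGTG was in 9 of 33 genes (27.3%), against 4.29%, and GTAAACA was in 0 of 33, against 4.05%. The 11 genes with CACGTG had a median log2 fold change of 0.02 after deletion and -0.01 with AktI, and the 21 measured genes with an entry and without these letters had 0.13 and 0.11. In this description each group of genes held both signs in both comparisons.

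After deletion of Pdpk1, 1 of the 38 genes rose and 0 fell by limma, where 1.01% of all genes rose and 0.357% fell. At an unadjusted p under 0.05, 10 of the 38 were higher and 3 of the 38 lower, against 8.22% and 9.04% of all genes. SAM, a permutation method, called 1 higher and 0 lower, against 1.18% and 0.374% of all genes. In 13 of the 38 (34.2%) every Pdpk1-null array was above every Cre control array, which held for 10.9% of all genes and 14.1% of genes above background. In 3 (7.89%) every Pdpk1-null array was below, against 13.7% of all genes and 17.8% of those above background. The median log2 fold change was 0.06 in the set and -0.01 over all genes.

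The largest changes after deletion were those of Psap and Cst3, which are grouped here with the proteins that help or inhibit enzymes. The median over the 4 genes of this group was 0.43, but Npc2 and Grn had smaller values than the enzyme gene Ctsl. Psap, which encodes the precursor of the saposins that present lipids to hydrolases, had log2 signals of 10.40, 10.22 and 10.52 in Pdpk1-null and 9.87, 9.57 and 9.74 in Cre control CTL. All Pdpk1-null arrays were above the controls. The gene rose 1.57-fold, or 0.65 on the log2 scale (standard error 0.105, adjusted p = 0.0229). The other Psap probe set rose alike (0.62, adjusted p = 0.021). Cst3 encodes cystatin C, a secreted inhibitor of cysteine cathepsins. Its log2 signals were 9.99, 9.99 and 10.13 in Pdpk1-null and 9.43, 9.44 and 9.59 in Cre control CTL. The groups did not overlap and lay further apart than the arrays within either group, and the change of 1.46-fold was under the minimum (0.55, standard error 0.078, adjusted p = 0.0158). Npc2, which carries cholesterol out of the lysosome lumen, had 11.65, 11.62 and 11.76 in Pdpk1-null and 11.49, 11.33 and 11.42 in Cre control CTL, and Grn, the gene of progranulin, had 9.10, 9.35 and 9.37 in Pdpk1-null and 9.17, 8.72 and 9.02 in Cre control CTL. Npc2 was higher on every Pdpk1-null array but did not pass (0.27, adjusted p = 0.13), and the Grn groups overlapped (0.30, adjusted p = 0.301).

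The call of Psap was lost when Pdpk1-null replicate 1 or 3, or replicate 2 or 3 of the Cre controls, was left out (log2 fold change 0.58 to 0.66, adjusted p = 0.0776 to 0.0913). Cst3 passed when Cre control replicate 3 was left out (0.60, adjusted p = 0.039). Psap and Cst3 are also expressed by myeloid cells. In bulk cultures, fewer cells of a type and less RNA per cell cannot be told apart. Of 12 macrophage and monocyte markers, 7 were above background in the Pdpk1 experiment and 0 passed (7 with a higher mean, 5 with a lower mean). Ccr2, which T cells also express, was the brightest of these markers (11.03 in Pdpk1-null and 10.88 in Cre control CTL) and made up most of their summed level. The summed log2 level of the markers lay between 11.11 and 11.44 in Pdpk1-null and between 11.06 and 11.16 in Cre control CTL, with Adgre1, Itgam, Mpeg1, Mrc1 and Cd163 below background. Their part in the result was not tested.

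None of the 14 lysosomal enzymes passed after deletion. Of the cysteine cathepsins, Ctsl (0.42, adjusted p = 0.0892), Ctss (0.36, adjusted p = 0.211) and Ctsb (0.17, adjusted p = 0.294) were higher on every Pdpk1-null array, and so was the carboxypeptidase gene Ctsa (0.19, adjusted p = 0.238). Ctsl was the dimmest of these, with 5.67, 5.59 and 5.93 in Pdpk1-null and 5.42, 5.23 and 5.27 in Cre control CTL. The aspartic protease gene Ctsd went the other way, with 11.19, 11.41 and 11.46 in Pdpk1-null and 11.61, 11.73 and 11.71 in Cre control CTL. Every Pdpk1-null array was below the controls, by more than the spread within Cre control CTL but less than that within Pdpk1-null CTL, and the change did not pass (-0.33, standard error 0.0876, adjusted p = 0.112). Gla, which removes terminal galactose from glycolipids, had 0.19 without overlap (adjusted p = 0.383). The carboxypeptidase gene Ctsz had 0.16 with overlapping groups (adjusted p = 0.51). The other 7 enzymes, Hexa, Gaa, Glb1, Gusb, Lipa, Tpp1 and Neu1, which degrade glycolipids, glycogen, glycans, lipid esters and peptides, had log2 fold changes between -0.03 and 0.04, all with overlapping groups.

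The pump and membrane genes did not pass after deletion. Atp6v1a, the catalytic subunit of the peripheral sector, had 8.57, 8.71 and 8.70 in Pdpk1-null and 8.85, 8.89 and 8.92 in Cre control CTL (-0.23, standard error 0.0711, adjusted p = 0.173). Atp6v1h, a regulatory subunit of the same sector, had 8.75, 8.68 and 8.67 in Pdpk1-null and 8.93, 8.96 and 8.82 in Cre control CTL (-0.20, standard error 0.0705, adjusted p = 0.216). In both genes the Pdpk1-null arrays lay below all controls. Atp6v0d1, of the membrane sector, had 0.04 and the accessory subunit gene Atp6ap1 had -0.02. The membrane glycoprotein gene Lamp2 (-0.12), the cholesterol exporter gene Npc1 (0.22) and the calcium channel gene Mcoln1 (-0.02) had overlapping groups. The dimmer Lamp2 probe sets differed in sign from the brightest or lay near 0 (0.15, 0.16 and -0.01, adjusted p = 0.451, 0.496 and 0.985).

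None of the 11 autophagy genes passed after deletion, and their median log2 fold change was 0.13. Map1lc3b, which encodes the LC3 protein used as a marker of autophagosomes, had 10.76, 10.72 and 10.82 in Pdpk1-null and 10.57, 10.56 and 10.43 in Cre control CTL (0.25, standard error 0.0722, adjusted p = 0.147). The Pdpk1-null arrays were all higher, as they were for its relatives Gabarapl1 (0.13) and Gabarapl2 (0.07), for Atg12 (0.19), whose product is conjugated to that of Atg5, and for Wipi1 (0.13), which reads phosphoinositides on forming membranes. The initiating kinase gene Ulk1 (0.22), the cargo receptor gene Sqstm1 (0.13) and the conjugating enzyme gene Atg7 (0.10) had overlapping groups, as did Becn1 (-0.04), Atg5 (-0.08) and Map1lc3a (-0.09). A dimmer Atg5 probe set had -0.23 (adjusted p = 0.233), with every Pdpk1-null array below the controls. The transcription factor genes Tfeb (-0.06, adjusted p = 0.813) and Tfe3 (0.01, adjusted p = 0.986) had overlapping groups too. Neu1 and Tfeb lie on chromosome 17, as does Pdpk1, and no member that passed does.

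**Figure D2:**
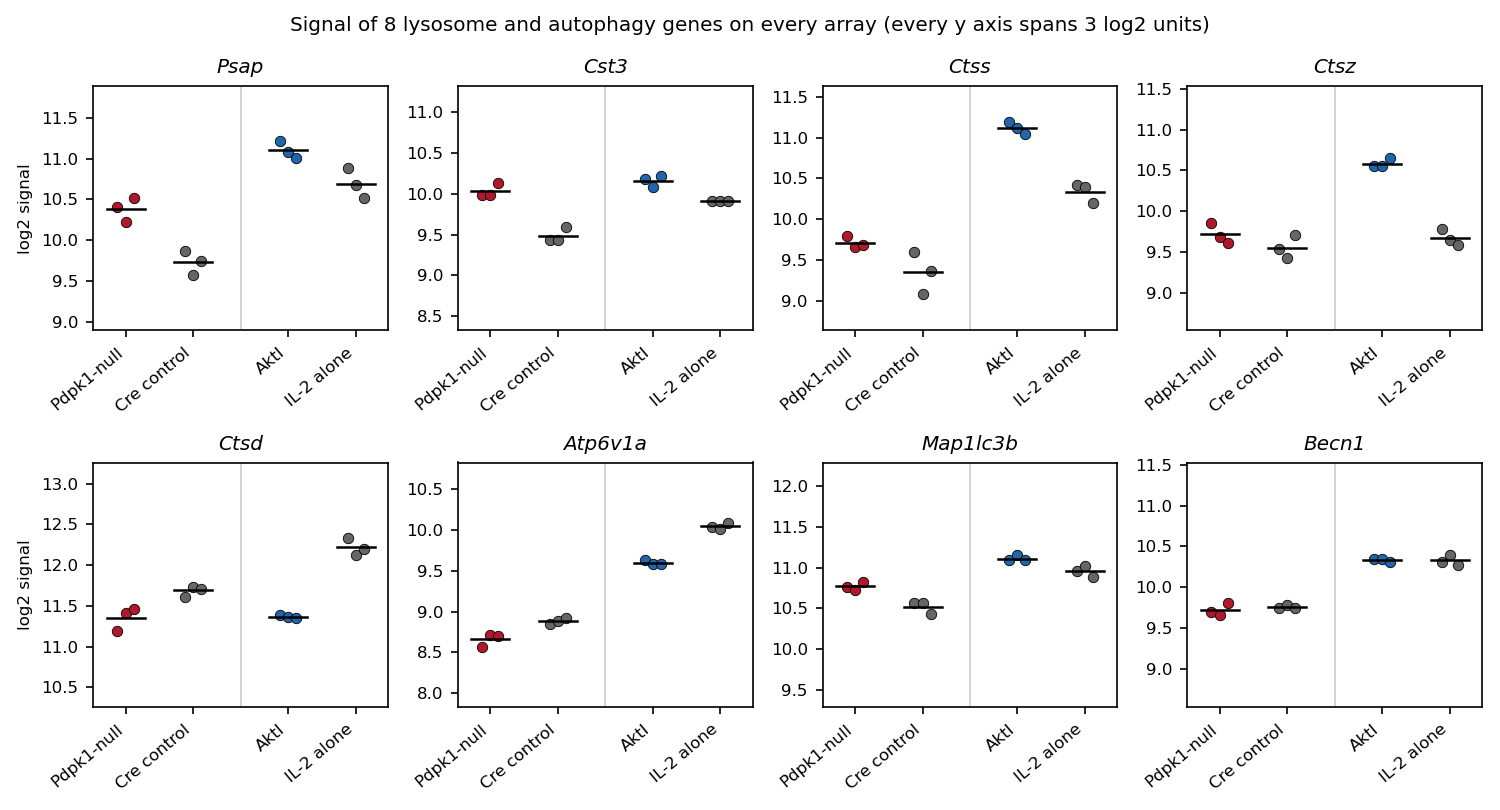
Log2 signal (y axis) on every array for 8 genes in Pdpk1-null, Cre control, AktI and IL-2 alone CTL, with points for the 3 arrays per group and bars for their means. Pdpk1-null and Cre control arrays lie apart for all genes shown but Ctsz and Becn1, and AktI and IL-2 alone arrays for all but Becn1.

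With AktI, 2 of the 38 genes rose and 1 fell, where 1.51% of all genes rose and 1.03% fell. SAM gave the same counts, where it called 1.58% of all genes higher and 1.14% lower. At an unadjusted p under 0.05, 10 of the 38 were higher and 4 of the 38 lower, against 9.62% and 10.7% of all genes. Every AktI array was above every IL-2 alone array in 11 of the 38 (28.9%), against 12.7% of all genes and 17.5% of genes above background. Every AktI array was below in 5 (13.2%), against 14.8% and 19% of these. The median log2 fold change was 0.05 in the set and -0.02 over all genes.

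The cathepsins moved in opposite directions. Ctsz, a carboxypeptidase of the papain family, had log2 signals of 10.55, 10.55 and 10.65 with AktI and 9.78, 9.65 and 9.58 in IL-2 alone. It was higher in the AktI portion of each of the 3 mice, by 0.77, 0.90 and 1.07, and rose 1.88-fold (0.91, standard error 0.0752, adjusted p = 0.000396), as did both other Ctsz probe sets (0.86 and 0.77). Ctss encodes an elastolytic cysteine protease known for cutting the invariant chain of MHC class II. Its log2 signals were 11.19, 11.12 and 11.04 with AktI and 10.42, 10.40 and 10.20 in IL-2 alone, higher in all 3 mice, and it rose 1.71-fold (0.78, standard error 0.0813, adjusted p = 0.00128). Ctsd, the main aspartic protease of lysosomes, had 11.39, 11.36 and 11.35 with AktI and 12.33, 12.13 and 12.20 in IL-2 alone. The 3 AktI arrays were nearly equal and lay below all IL-2 alone arrays, and Ctsd fell 1.81-fold (-0.85, standard error 0.073, adjusted p = 0.000477). All 3 calls held without any 1 array (adjusted p at most 0.00803) and with the mouse as a block (0.00226 to 0.00286).

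The other enzymes did not pass with AktI. Gusb, a glucuronidase gene, had 9.30, 9.28 and 9.32 with AktI and 9.07, 9.14 and 9.08 in IL-2 alone (0.20, adjusted p = 0.115). Hexa, a hexosaminidase gene, had 0.16 (adjusted p = 0.248) and Ctsl 0.28 (adjusted p = 0.186). In these 3 genes the AktI arrays lay above the IL-2 alone arrays, and in the peptidase gene Tpp1 they lay below on the brightest probe set (-0.14, adjusted p = 0.313). A dimmer Tpp1 probe set had 0.36 (adjusted p = 0.122), with every AktI array above the IL-2 alone arrays. Ctsa, Ctsb, Gaa, Gla, Glb1, Lipa and Neu1 overlapped on their brightest probe sets, with log2 fold changes between -0.06 and 0.14. A dimmer probe set of Lipa (-0.32, adjusted p = 0.148) and one of Ctsb (-0.12, adjusted p = 0.354) had every AktI array below the IL-2 alone arrays.

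Of the enzyme helpers and inhibitors, Psap had 11.21, 11.08 and 11.01 with AktI and 10.88, 10.67 and 10.51 in IL-2 alone. It was higher in each mouse but did not pass (0.41, standard error 0.103, adjusted p = 0.058), and with the mouse as a block its adjusted p was 0.0261, still under 1.5-fold. Cst3 had 10.18, 10.09 and 10.22 with AktI and 9.91, 9.92 and 9.92 in IL-2 alone (0.24, adjusted p = 0.0741). Npc2 had 12.53, 12.59 and 12.41 with AktI and 12.35, 12.26 and 12.07 in IL-2 alone (0.28, adjusted p = 0.13). These 3 genes did not overlap between groups. A dimmer Npc2 probe set rose with AktI (7.16 against 6.35 in IL-2 alone, log2 fold change 0.81, adjusted p = 0.0126), while the other bright probe set had 0.26. Grn was lower on every AktI array (-0.22, adjusted p = 0.255), and its other probe sets had -0.27 and -0.36.

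Ctss, Ctsz, Ctsd and Cst3 are expressed by macrophages and dendritic cells as well as by T cells. With AktI, 5 of 12 macrophage and monocyte markers were above background, and 2 of the 12, Cd68 and Mpeg1, fell. Their summed log2 level lay between 11.40 and 11.78 with AktI and between 11.86 and 12.32 in IL-2 alone, and Ccr2, which T cells also express, was the brightest of them (11.46 and 11.99). Lyz2, Adgre1, Cd14, Itgam, Mrc1, Cd163 and Ms4a7 were below background. The 9 measured dendritic cell markers had 0 passing, 9 lower means and a summed level between 8.82 and 8.87 with AktI, against 9.06 and 9.16 in IL-2 alone. Of 5 measured basophil and mast cell markers, 1 passed, Mcpt8, which fell (4.87 with AktI and 5.96 in IL-2 alone, -1.09, adjusted p = 0.0465), and Fcer1a, Cpa3 and Ms4a2 were below background. Their summed level lay between 6.70 and 6.89 with AktI and between 6.95 and 7.48 in IL-2 alone, and no B cell or neutrophil marker passed. Their part in the result was not tested.

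Atp6v1a was the pump gene of the set with a change beyond the replicate spread under AktI. Its log2 signals were 9.63, 9.59 and 9.59 with AktI and 10.04, 10.01 and 10.09 in IL-2 alone. The groups were narrow and well apart, and the change of 1.36-fold was under the minimum (-0.44, standard error 0.0617, adjusted p = 0.00497; other probe set -0.42). Atp6v0d1, Atp6v1h and Atp6ap1 had -0.05, -0.02 and -0.07 with overlap, and so did the membrane genes Lamp2 (-0.07), Npc1 (-0.07) and Mcoln1 (-0.01).

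The autophagy genes and their transcription factors did not pass with AktI, and the median over the 11 autophagy genes was 0.05. Map1lc3a, an LC3 gene, had 6.98, 7.00 and 6.86 with AktI and 7.24, 7.21 and 7.21 in IL-2 alone (-0.27, standard error 0.0669, adjusted p = 0.0563). Gabarapl1 had 9.33, 9.29 and 9.38 with AktI and 9.12, 9.15 and 9.07 in IL-2 alone (0.22, adjusted p = 0.1). These relatives thus lay on opposite sides without overlap. Map1lc3b had 0.15 on its brightest probe set (adjusted p = 0.288). Its next probe sets had 0.38 and 0.46 (adjusted p = 0.0238 and 0.00995), both under 1.5-fold. Gabarapl2 had 0.11, and neither it nor Map1lc3b overlapped between groups on the brightest probe set. The other autophagy genes overlapped between groups, among them Becn1 (10.34, 10.34 and 10.31 with AktI, against 10.31, 10.40 and 10.27 in IL-2 alone) and Sqstm1 (0.00). Tfeb had -0.11 (adjusted p = 0.531) and Tfe3 had 0.21 (adjusted p = 0.241), both with overlap.

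The effects of deletion and of AktI were set against each other in a model of all 12 arrays. Of the 38 genes, 1 differed, Ctsz, with a lower effect of deletion (-0.75, standard error 0.129, adjusted p = 0.0241), where 0.203% of all genes differed in that direction and 0.319% in the other. At an unadjusted p under 0.05 the effect of deletion was lower in 2 and higher in 5, against 5.42% and 5.66% of all genes. With the replicate number as a block the difference of Ctsz did not pass (adjusted p = 0.0721), and it passed in 3 of 12 fits without 1 array. That block also covers the Pdpk1 arrays, which share only a number. Both other Ctsz probe sets passed in the main fit (-0.72 and -0.62, adjusted p = 0.0279 for each). Ctsd fell with AktI and did not pass after deletion, but the difference did not pass either (0.52, standard error 0.115, adjusted p = 0.0814), except without Pdpk1-null replicate 1 (0.60, adjusted p = 0.0261). Neither did those of Ctss (-0.41, adjusted p = 0.361), Psap (0.24, adjusted p = 0.662), Cst3 (0.31, adjusted p = 0.258) and Atp6v1a (0.22, adjusted p = 0.405). Grn had opposite signs, 0.30 after deletion and -0.22 with AktI, a difference of 0.52 that did not pass (adjusted p = 0.253). Across the 38 genes the effects had the same sign in 27, against 11128 of all 18193 genes. Pearson r was 0.625 in the set and 0.532 across all genes, as a description, since genes are not independent replicates.

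**Figure D3:**
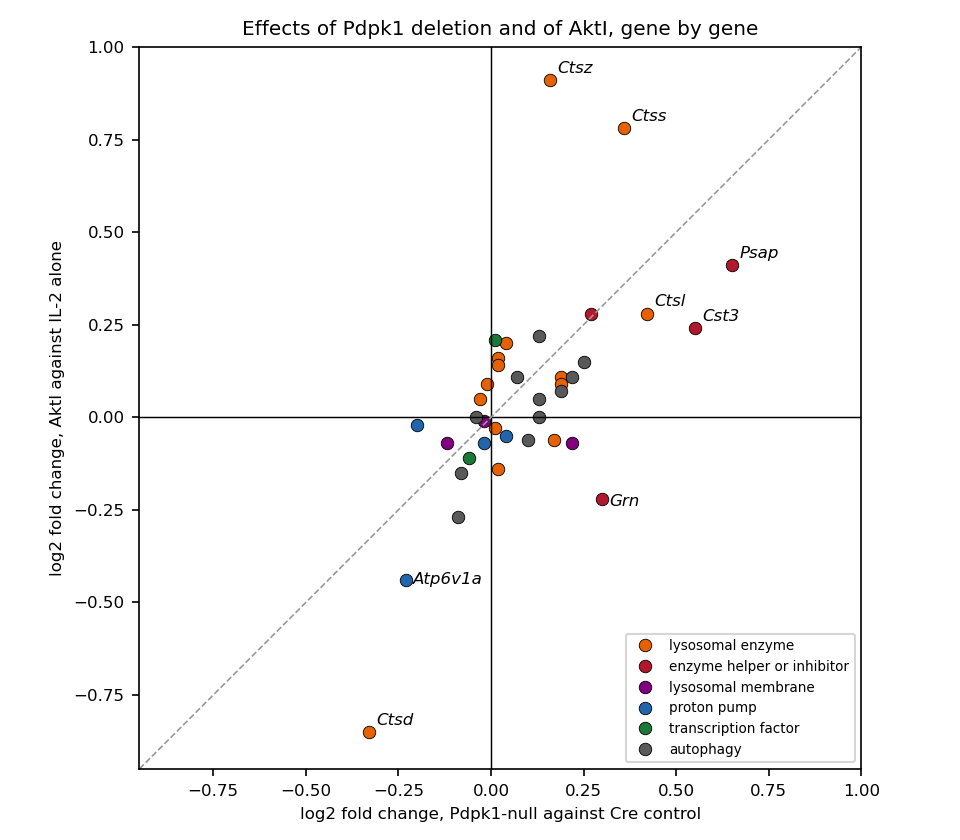
Log2 fold change with AktI (y axis) against log2 fold change after Pdpk1 deletion (x axis) for the 38 genes, coloured by role, with a dashed line where effects are equal. Ctsz lies far above the line (0.91 and 0.16), Ctsd lies below it (-0.85 and -0.33), and Psap and Cst3 lie toward larger effects of deletion.

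A wider list of 120 lysosome, pump and autophagy genes, of which 111 were measured, was read from the same fits. After deletion 1 rose (0.901%, against 1.01% of all genes) and 0 fell, and SAM gave 1 and 0. At an unadjusted p under 0.05, 24 were higher and 6 lower (21.6% and 5.41%, against 8.22% and 9.04% of all genes). The gene that rose was Tecpr1, whose product helps autophagosomes fuse with lysosomes, with 9.27, 8.83 and 9.31 in Pdpk1-null and 8.53, 8.28 and 8.53 in Cre control CTL (0.69, standard error 0.136, adjusted p = 0.0468). Its groups did not overlap, but without any 1 array other than Pdpk1-null replicate 2 it did not pass (0.60 to 0.73, adjusted p = 0.113 to 0.167). Of the 35 enzymes and helpers in the wider list, 14 were higher and 0 lower at the unadjusted level, beside the same 8.22% and 9.04% of all genes. Gm2a, the activator of ganglioside breakdown, and the sulfatase gene Arsb had the largest values (0.49 and 0.45, adjusted p = 0.128 and 0.0602). Ctsc, the cathepsin that trims progranzymes, had 0.40 (adjusted p = 0.0343), under 1.5-fold. The autophagy gene Atg10 had 0.43 (adjusted p = 0.0319), also under 1.5-fold, and its groups did not overlap. The peptide transporter gene Abcb9 had -0.42 (adjusted p = 0.0621). Dimmer probe sets passed for Ctse (0.62, adjusted p = 0.0433) and Atp6v0a1 (-0.72, adjusted p = 0.0158), whose brightest had 0.31 and 0.01.

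With AktI 3 genes of the wider list rose and 2 fell (2.7% and 1.8%, against 1.51% and 1.03% of all genes). At the unadjusted level 15 were higher and 23 lower (13.5% and 20.7%, against 9.62% and 10.7%). Gm2a had 10.23, 10.16 and 10.19 with AktI and 9.47, 9.31 and 9.33 in IL-2 alone, with no overlap, and rose 1.77-fold (0.82, standard error 0.0704, adjusted p = 0.000477). Tecpr1 (0.82, standard error 0.0854, adjusted p = 0.00122) and Sesn1, a stress-induced sestrin gene that acts on nutrient signaling (0.79, standard error 0.0872, adjusted p = 0.00164), also rose. Tecpr1 thus passed in both comparisons, and its effects did not differ by the test (-0.14, adjusted p = 0.852). Sesn2, a relative of Sesn1, had -0.49 with AktI (adjusted p = 0.00417), under 1.5-fold. Cd68, a lysosomal membrane glycoprotein gene and macrophage marker, had 6.01, 5.82 and 6.21 with AktI and 7.77, 7.12 and 7.04 in IL-2 alone. It fell 2.46-fold without overlap (-1.30, standard error 0.185, adjusted p = 0.00563) and was the 1 wider gene whose effects differed (1.61, adjusted p = 0.0133), with 0.31 after deletion.

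The pump was examined over all 17 measured subunits, 4 of the set and 13 of the wider list. With AktI 15 of the 17 had a lower mean (88.2%), against 55% of all genes, and the same 15 to 2 split was found with quantile normalization and with arrays shifted to the same median. After deletion 12 of 17 had a lower mean (70.6%), against 52.9% of all genes, and 13 with quantile normalization. Most changes were small, with medians of -0.07 and -0.04. On the brightest probe sets the call that passed was Atp6v0a2, a membrane-sector subunit, with 8.83, 8.81 and 8.64 under AktI and 9.40, 9.43 and 9.27 in IL-2 alone (-0.60, standard error 0.0787, adjusted p = 0.00353). Its groups were well apart, but its other probe sets had -0.17 and -0.14, and it came to -0.58 and -0.55, under the minimum, without IL-2 replicate 2 or AktI replicate 3. Atp6v0a1, another membrane-sector subunit, had -0.08 with AktI on its brightest probe set, while a dimmer one fell (5.56 with AktI and 6.45 in IL-2 alone, -0.89, adjusted p = 0.024) and the others had -0.54 and -0.44 (adjusted p = 0.0149 and 0.018). The peripheral subunit gene Atp6v1b2, which pairs with Atp6v1a in the catalytic ring, had -0.31 (adjusted p = 0.0266) and Tcirg1 had -0.21 (adjusted p = 0.187). After deletion Atp6v0a2 and Atp6v0b had the largest values (-0.27 and -0.26, adjusted p = 0.189 and 0.182).

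**Figure D4:**
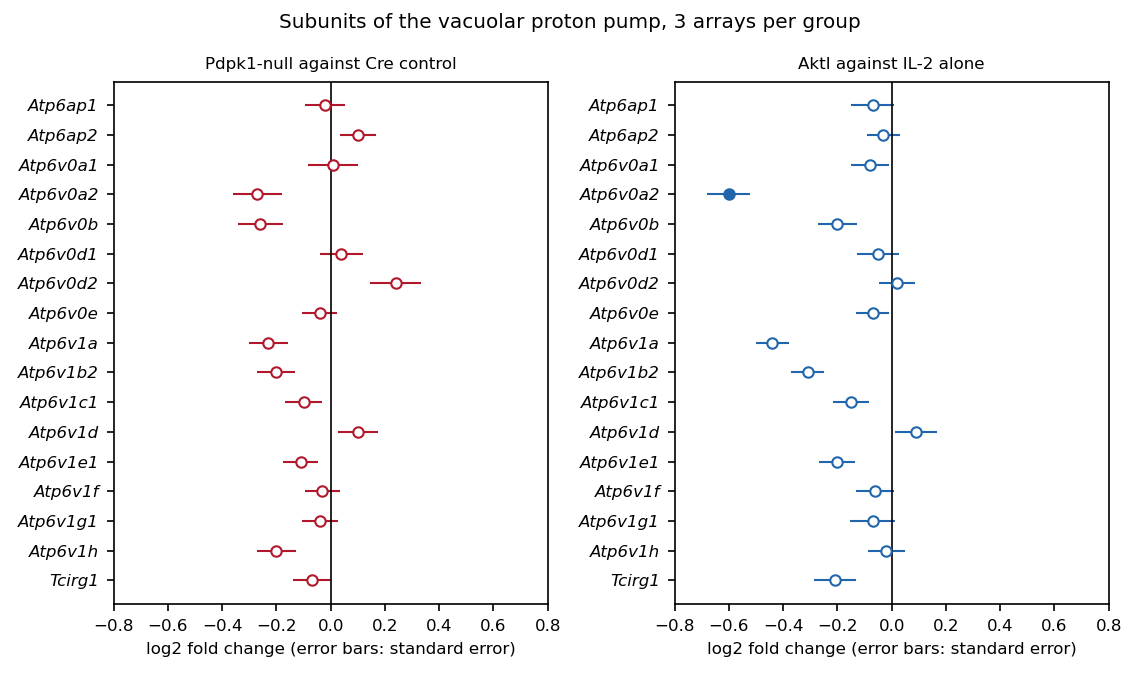
The 17 measured subunits of the vacuolar proton pump, with points for the log2 fold change (x axis) and bars for its standard error, in Pdpk1-null against Cre control CTL (left, red) and in AktI against IL-2 alone (right, blue), 3 arrays per group. With AktI, 15 of 17 means lie below 0 and the filled point, Atp6v0a2, passed.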

How the data were processed

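RNA of 12 CTL cultures was hybridized to Affymetrix mouse arrays, 3 per group. The authors deposited log2 signals from Affymetrix Expression Console 1.1, made by the RMA method, and these were used as deposited. Of 45101 probe sets, 64 controls were left out. A probe set was named by the platform annotation, and 34945 name 1 gene. Replicates are cultures of separate mice, and AktI and IL-2 alone cultures of one number were taken to share a mouse.

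Calculations used R 4.3.3 and limma 3.58.1 (lmFit, eBayes), each comparison on its own 6 arrays with no covariate, and the difference as the interaction over 12 arrays. With 3 arrays in each group no two-sided permutation p can be below 0.1, and p-values are those of limma. Fits were tested on simulated data. The AktI and IL-2 alone samples were paired by their replicate number. The labels give this number and name no mouse, and the study states that AktI was added to part of each culture. That arrays of one number share a mouse is thus inferred. After group means were removed, same-numbered AktI and IL-2 alone arrays correlated with r from 0.0343 to 0.17 and other pairs with -0.102 to 0.0383. The Pdpk1 arrays share only a number.

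Alternatives were quantile normalization, a median shift, limma with a trend or robust setting, leaving out dim probe sets, other fold minimums, the mean of all or any of a gene's probe sets, 1 model over all arrays, a replicate block, each array left out, and SAM as the study's methods name it, rewritten over the 20 relabellings with the 18th taken as the upper count of false calls. The genes named are all members, with array values for those that passed or had an adjusted p under 0.05 and for others that help a comparison, chosen after values were seen. Of the wider list they are the genes that passed, or the 2 largest changes of a list where none passed, where above background and informative. Ctsc, Atg10, Sesn2, Atp6v1b2, Tcirg1 and Atp6v0a1 were added after their values were seen. The members and lists were chosen with earlier results of these data known. Psap, Npc2, Ctss, Ctsz and Ctsd, and of the wider list Gm2a, Sesn1, Ctse, Atp6v0d2 and Atp6v0a1, stand in the study's own tables of changed genes, so their counts are not independent evidence. Columns of another series were 0.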

Additional observations from a re-analysis of the deposited data

Results flagged for a closer look

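The effects of Pdpk1 deletion and of AktI differed for Ctsz, with a log2 difference of -0.75 (adjusted p = 0.0241 from limma's interaction test over 12 arrays). Ctsz had 0.16 in Pdpk1-null against Cre control CTL and 0.91 in AktI against IL-2 alone. The difference did not pass with the replicate block (adjusted p = 0.0721), in which the Pdpk1 arrays share only a number. It passed in 3 of 12 fits without 1 array.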

How the results depend on the processing

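No change that passed was reversed in any alternative. Fold changes near 0 could turn, as Sqstm1 did after deletion (-0.03 to 0.25 when each array was left out), and with a median shift both transcription factors, not 1, had a lower mean after deletion. After Pdpk1 deletion the 1 member that passed (Psap) became 2 with no fold minimum (Cst3 added) and 0 with a 2-fold minimum, with 0 to 1 when each array was left out in turn. With AktI the 3 members that passed became 4 with no fold minimum (Atp6v1a added) or with any probe set (Npc2 added), and 0 with a 2-fold minimum. The 1 member whose effects differed (Ctsz) became 0 with a 2-fold minimum or the replicate block, and 0 to 2 when each array was left out. When AktI replicate 1, 2 or 3, IL-2 replicate 2 or 3, Pdpk1-null replicate 2 or 3, or a Cre control (replicate 1 or 3) was left out, the Ctsz difference had an adjusted p of 0.053 to 0.0636. Of the wider list, the 1 gene after deletion became 3 with no fold minimum, 0 with a 2-fold minimum or the mean of probe sets, 4 with any probe set, and 0 to 1 when each array was left out. The 5 genes with AktI became 11 with no fold minimum, 1 with a 2-fold minimum and 3 with the mean of probe sets. The 1 wider gene whose effects differed was 1 to 2 when each array was left out (Arsb added without Cre control replicate 2). With no fold minimum the shares of all genes called were larger too. They were 1.63% higher and 0.742% lower after deletion, and 3.66% higher and 2.94% lower with AktI. With the replicate block Psap after deletion had an adjusted p of 0.0202 and kept its call. For the Pdpk1 arrays, r lay between -0.011 and 0.0496 for same-numbered pairs and between -0.074 and 0.041 for the others, so the number is no pairing. The block changed no other call of a member. With 3 arrays per group, changes near 1.5-fold are close to what the test can call, and 1 array per experiment can decide them.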
